A study of Mus musculus with 24 samples.

Results

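The Wnt antagonists followed here are 7 genes: Dkk1, Cer1, Shisa2, Sfrp1, Sfrp2, Sfrp5 and Frzb. Their proteins, or for Cer1 and Shisa2 the frog proteins, are known to restrain Wnt signalling outside the cell or at its membranes. The 7 genes are taken by name, not by a threshold on a measured value. Earlier results of these data were known when the names were chosen. All 7 were found by symbol among 55401 entries of the gene count table. All 7 passed the filter on low counts, which left 17144 genes for testing. The libraries came from CJ9 mouse embryonic stem cells taken through an endoderm differentiation. Cells either carried a Setd3 knock-out made with CRISPR-Cas9 or were wild-type, and both received the same treatment, with LIF and inactivated mouse embryonic fibroblasts before differentiation and Activin A from day 2. The 8 groups were knock-out and wild-type cells at days 0, 2, 3 and 4, with 3 libraries in each, 24 in all. The knock-out is 1 line, and nothing says that the replicates were separate cultures, so p-values measure the spread between these libraries only, which may be technical.

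Wnt ligands act by binding Frizzled receptors together with the co-receptors LRP5 and LRP6, which stabilises beta-catenin and turns on target genes through TCF/LEF factors. Antagonists act at different points of this route: secreted Frizzled-related proteins (the Sfrp genes and Frzb) bind Wnt ligands, Dkk1 binds the LRP co-receptors, and Shisa, as described in frog, holds Frizzled and FGF receptors back inside the cell. Cer1 encodes Cerberus, which in frog binds Wnt, Nodal and BMP ligands. For Cer1 the name Wnt antagonist thus rests here on the frog protein, and an effect on Wnt in these mouse cells was not measured. In the mouse embryo, Dkk1 and Cer1 are known from the anterior visceral endoderm and the anterior definitive endoderm, where Wnt and Nodal signals are held low on the side of the future head.

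Library totals ran between 18531390 and 24244958 counts. Levels are in CPM, a count scaled by the size of its library, given as mean ± SD of n = 3 libraries, and CPM per kilobase of exon (CPM per kb) where genes are set against each other. The ± after a log2 fold change divides its size by the square root of F and is no standard error from the fit. Each adjusted p comes from edgeR's quasi-likelihood F test after Benjamini-Hochberg correction over all 17144 genes, and 0.05 is the threshold. Setd3 transcripts averaged 46.3, 30.9, 31.6 and 29.9 CPM in knock-out cells of days 0, 2, 3 and 4, against 122, 97.5, 120.2 and 124 CPM in wild-type cells. Of the defining markers, Pou5f1 and Nanog were present but Sox2 was listed at 0 in all 24 libraries. The wild-type library of day 3, replicate 1, stood apart from its group for Dkk1, Cer1 and Frzb, and the day 3 comparisons and steps of these genes are given with and without it.

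Summed per kb, the 7 antagonists were a changing pool. In knock-out cells the sum was 18.1 to 26.6 CPM per kb at day 0, 22.4 to 24.6 at day 2, 28.1 to 29.4 at day 3 and 40.1 to 72.4 at day 4. In wild-type cells it was 19.6 to 21.3 CPM per kb at day 0, 34.6 to 43.1 at day 2, 49.3 to 165 at day 3 and 676 to 838 at day 4. The ranges of the genotypes overlapped at day 0 and not at the later days. The make-up differed too. Sfrp1 held 64.1% to 72.9% of the sum in knock-out cells and 57.0% to 58.2% in wild-type cells at day 0. At day 3 Sfrp2 held 65.4% to 67.6% in knock-out cells, against 6.403% to 30.1% in wild-type cells, where Cer1 held 36.2% to 63.6%. At day 4 Cer1 held 30.2% to 52.4% in knock-out cells and 58.5% to 67.7% in wild-type cells.

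**Figure D1:**
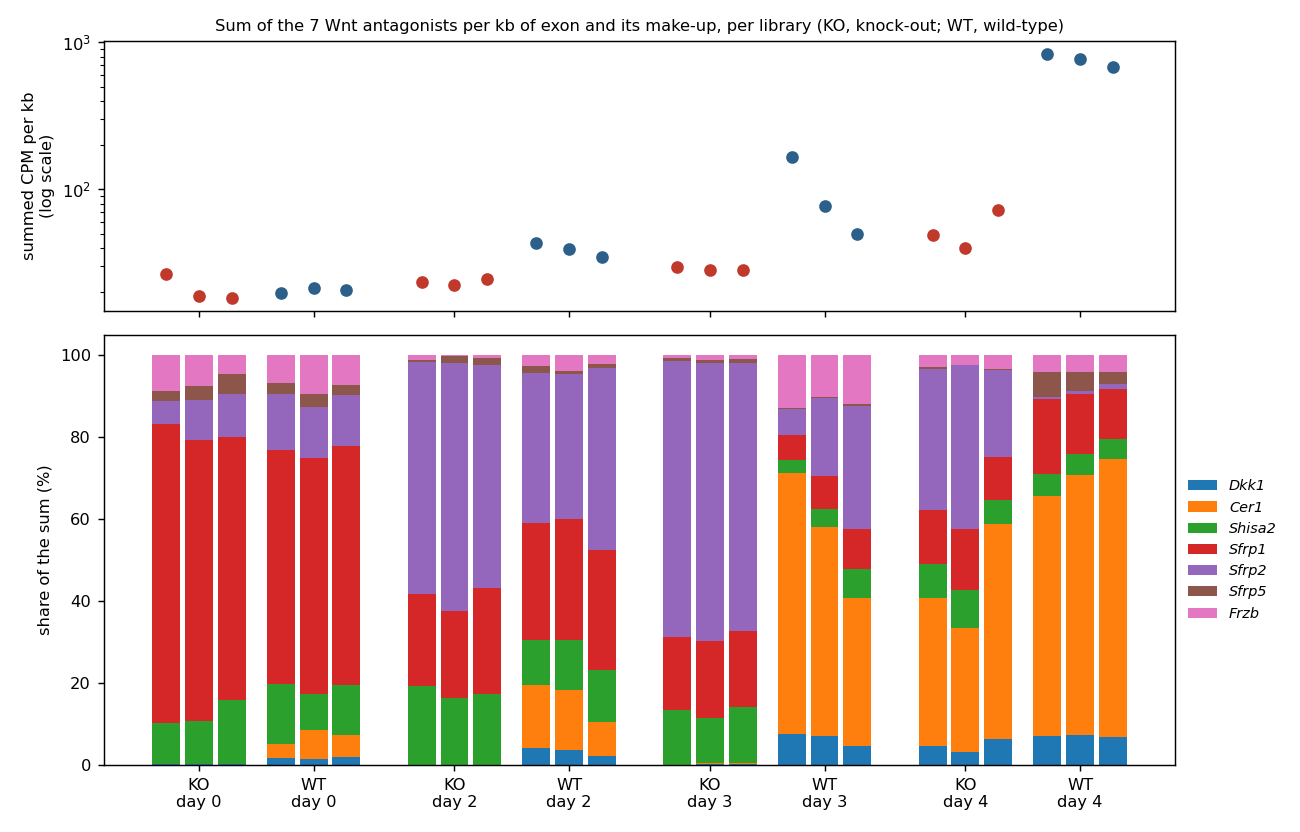
Top, summed CPM per kb of exon of the 7 antagonists in each library on a log axis, for knock-out (red) and wild-type (blue) cells at each day. Bottom, the share of each gene in that sum in percent, 1 bar per library; the knock-out bars of day 3 are mostly Sfrp2 (65.4% to 67.6%), and those of wild-type cells at day 4 mostly Cer1 (58.5% to 67.7%).

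Ordered by level per kb, Sfrp1 led at day 0 in knock-out and wild-type cells (14.6 and 11.8 CPM per kb), and Sfrp2 led at day 2 in both (13.4 and 14.97 CPM per kb), in each case with no overlap with the next gene. At day 3 Sfrp2 stayed first in knock-out cells (19.1 CPM per kb), while Cer1 was first in wild-type cells (53.8 CPM per kb). At day 4 the knock-out order was Cer1 (22.5), Sfrp2 (16.0), Sfrp1 (6.60), Shisa2 (4.05), Dkk1 (2.77), Frzb (1.63) and Sfrp5 (0.172 CPM per kb). Cer1 and Sfrp2 overlapped in that order, as did Shisa2 with Dkk1 and Dkk1 with Frzb. The wild-type order at day 4 was Cer1 (478), Sfrp1 (115), Dkk1 (54.5), Shisa2 (39.6), Sfrp5 (35.9), Frzb (31.0) and Sfrp2 (5.95 CPM per kb). There Shisa2 overlapped with Sfrp5 and Sfrp5 with Frzb. Sfrp2 was thus in last place in wild-type cells and in the second place in knock-out cells.

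**Figure D2:**
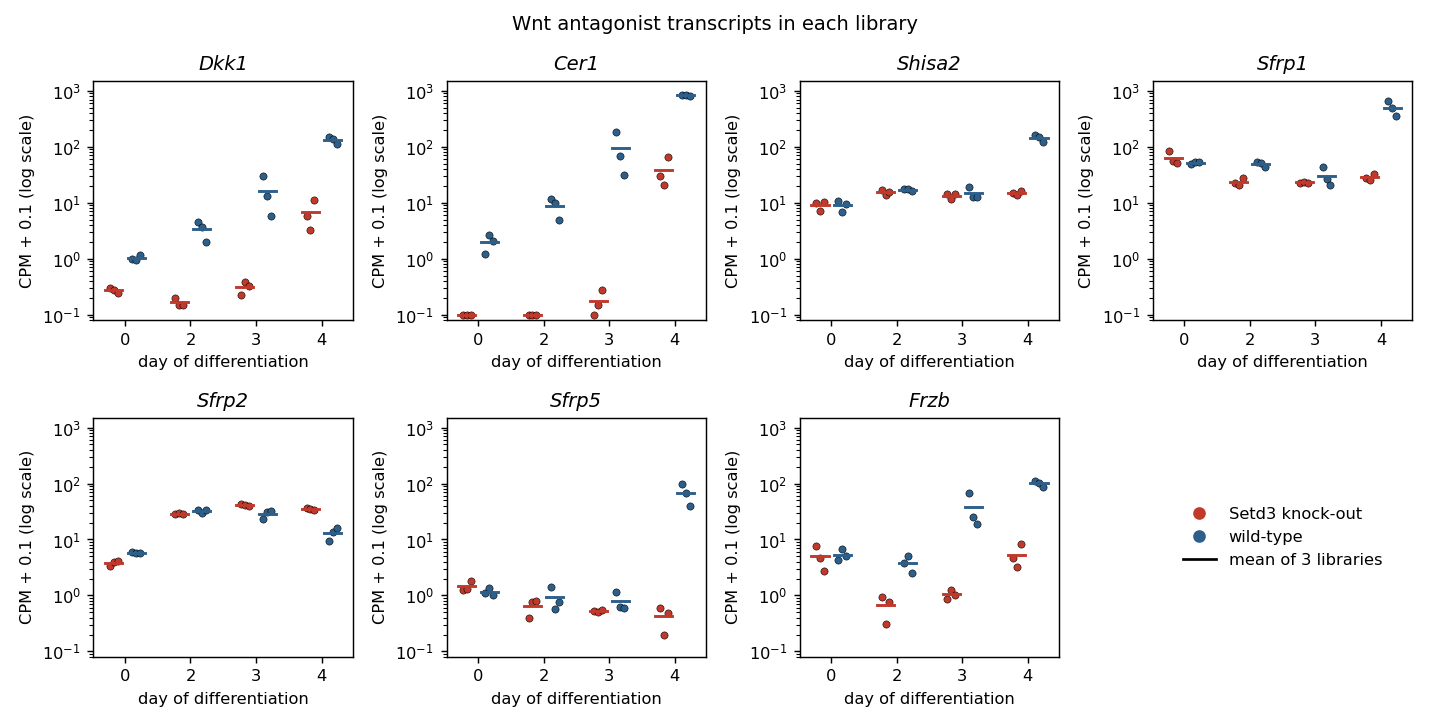
CPM + 0.1 on a log axis against the day of differentiation for each gene; red points are knock-out libraries, blue points wild-type libraries, and lines the mean of 3 libraries. At day 4 the red points lie below the blue ones for 6 genes and above them for Sfrp2, without overlap.

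The starts of these genes were looked at because 6 of the 7 were higher together in wild-type cells at day 4. RefSeq windows of 300 bases, 250 before and 50 after the annotated start on GRCm38.p6, were matched for 6 of the 7 genes, all but Sfrp1. Their GC content was 51.7% to 66.0%, against a median of 52.7% over all windows. Exact matches were searched on both strands for CTTTGAA or CTTTGAT (bound by TCF/LEF factors, held by 8.65% of 32851 windows), AGGTGTG (T-box, 5.84%), TGTTTAC (forkhead, 3.65%) and AATCCAC (FOXH1, 2.49%). No match overlapped another. The search found CTTTGAA 117 bases before the start of Dkk1, AGGTGTG 177 bases before that of Frzb and its reverse complement CACACCT 98 bases before that of Shisa2. None of these letters were found in the windows of Cer1, Sfrp2 and Sfrp5, which says nothing of the factors themselves. The sequences, 5′ to 3′ on the gene's strand, give the 250 bases before the RefSeq start of Cer1 (chr4:82885152-82885401, minus strand), the gene with the highest level at day 4, and of Shisa2 (chr14:59625031-59625280, plus strand), and 30 bases around the matches of Dkk1 (chr19:30549595-30549624, minus strand) and Frzb (chr2:80447555-80447584, minus strand). Capitals mark the match. The GENCODE start lies 169 bases further out for Dkk1 and 229 for Frzb, so both of these matches fall inside the GENCODE transcript. A match is a description of these letters and not of binding.
Cer1: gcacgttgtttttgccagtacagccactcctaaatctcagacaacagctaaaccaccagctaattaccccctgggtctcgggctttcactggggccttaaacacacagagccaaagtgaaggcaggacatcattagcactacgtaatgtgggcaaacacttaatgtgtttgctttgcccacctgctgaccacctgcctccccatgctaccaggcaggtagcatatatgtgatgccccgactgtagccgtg
Shisa2: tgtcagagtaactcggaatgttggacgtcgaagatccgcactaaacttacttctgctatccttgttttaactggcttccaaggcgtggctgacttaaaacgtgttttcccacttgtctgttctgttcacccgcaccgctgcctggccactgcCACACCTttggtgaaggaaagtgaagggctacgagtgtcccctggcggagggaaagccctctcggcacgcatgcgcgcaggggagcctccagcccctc
Dkk1: tcctcccaaagCTTTGAAatcccatcccgg
Frzb: ggagtggggaaAGGTGTGcggctcctgtcg

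Dkk1, the antagonist that binds the LRP co-receptors, was nearly silent in knock-out cells until day 4. The gene (ENSMUSG00000024868) lies on GRCm38 chromosome 19, 30545863 to 30549665, minus strand. Its 3 knock-out libraries had 4, 4 and 3 counts at day 0, 2, 1 and 1 at day 2, 3, 6 and 5 at day 3, and 126, 67 and 231 at day 4. The wild-type libraries had 19, 20 and 25 counts at day 0, 94, 68 and 37 at day 2, 639, 250 and 125 at day 3, and 3001, 2908 and 2502 at day 4. Every knock-out library was below every wild-type library of its day, at all 4 days. The means were 6.71 ± 4.12 CPM in knock-out and 132 ± 17.1 CPM in wild-type cells at day 4, a log2 fold change of -4.30 ± 0.45 (adjusted p = 3.57e-07). The log2 fold change was -5.52 ± 1.26 at day 2 (adjusted p = 0.00292) and -6.27 ± 0.78 at day 3 (adjusted p = 5.53e-06). Without the wild-type library of day 3, replicate 1, it was -5.46 at day 3 (adjusted p = 6.83e-06). At day 0 it was -2.38 ± 1.31 and did not pass (adjusted p = 0.224). That call depends on the fit: with only the day 0 libraries adjusted p = 0.00581, with DESeq2 0.0011, and over the 11 alternatives 0.0011 to 0.367.

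Cer1, which encodes Cerberus, had no counts at all in knock-out cells at days 0 and 2. The gene (ENSMUSG00000038192) lies on GRCm38 chromosome 4, 82881751 to 82885148, minus strand. The knock-out libraries had 0, 1 and 4 counts at day 3 and 669, 442 and 1355 at day 4. The wild-type libraries had 24, 60 and 45 counts at day 0, 237, 190 and 95 at day 2, 3860, 1273 and 695 at day 3, and 17334, 18131 and 17503 at day 4. The groups did not overlap at any day, and the wild-type libraries of day 4 lay within 796 to 852 CPM while those of day 3 spread over 31.05 to 182 CPM. Set against a floor of 3 counts over the knock-out group, Cer1 was at least 39.4-fold lower at day 0 (0 against 129 counts) and at least 175-fold lower at day 2 (0 against 522 counts, adjusted p = 0.00955). The day 0 difference did not pass in the fit to all libraries (adjusted p = 0.173), but it did with only the day 0 libraries (0.00148) and with DESeq2 (3.38e-07), the alternatives ranging up to 0.285. The log2 fold change was -10.21 ± 1.23 at day 3 (adjusted p = 2.33e-05). It was -9.28 without wild-type replicate 1 and -11.71 without knock-out replicate 3, which holds 4 of the 5 knock-out counts. At day 4 the means were 39.1 ± 23.7 CPM in knock-out and 831 ± 30.4 CPM in wild-type cells, a log2 fold change of -4.41 ± 0.58 (adjusted p = 2.79e-05), or -5.01 without knock-out replicate 3.

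Shisa2, the membrane antagonist of Frizzled trafficking, was lower in knock-out cells at day 4 and did not pass the test at the earlier days. The gene (ENSMUSG00000044461) lies on GRCm38 chromosome 14, 59625308 to 59631660, plus strand. It had 14.9, 13.85 and 15.9 CPM in the knock-out libraries of day 4, against 165, 147 and 123 CPM in the wild-type libraries. The lowest wild-type library was far above the highest knock-out library, and the log2 fold change was -3.29 ± 0.17 (adjusted p = 2.36e-12). At days 0, 2 and 3 its means were 9.04, 15.25 and 13.3 CPM in knock-out and 8.88, 17.01 and 14.8 CPM in wild-type cells. The libraries overlapped at each of these days and the log2 fold changes were 0.02 ± 0.19, -0.16 ± 0.17 and -0.15 ± 0.17 (adjusted p = 0.947, 0.529 and 0.524).

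Sfrp1, a secreted Frizzled-related protein, was lower in knock-out cells at days 2 and 4. The gene (ENSMUSG00000031548) lies on GRCm38 chromosome 8, 23411502 to 23449632, plus strand. Its knock-out libraries had 84.8, 55.9 and 50.7 CPM at day 0, 22.85, 20.7 and 27.5 at day 2, 22.9, 23.2 and 22.9 at day 3, and 27.8, 25.9 and 32.9 at day 4. Its wild-type libraries had 48.75, 53.55 and 52.8 CPM at day 0, 54.0, 50.7 and 44.1 at day 2, 44.0, 26.7 and 21 at day 3, and 662, 485.5 and 361 at day 4. The genotypes overlapped at days 0 and 3 and were apart at days 2 and 4. The log2 fold change was -1.07 ± 0.26 at day 2 (adjusted p = 0.00493) and -4.12 ± 0.27 at day 4 (adjusted p = 8.45e-10), while 0.30 ± 0.24 at day 0 and -0.41 ± 0.26 at day 3 did not pass (adjusted p = 0.428 and 0.232). The 845 tested genes of chromosome 8 stood at medians of 0.24, 0.21, 0.21 and 0.20 over the 4 days on the log2 scale, against 0.00, -0.01, -0.02 and -0.02 over the other genes.

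Sfrp2 went the other way. The gene (ENSMUSG00000027996) lies on GRCm38 chromosome 3, 83766321 to 83774316, plus strand. It had 35.85, 34.4 and 32.9 CPM in the knock-out libraries of day 4, against 9.29, 13.3 and 15.8 CPM in the wild-type libraries. It had 42.4, 40.9 and 39.95 CPM in the knock-out libraries of day 3, against 22.7, 31.2 and 32.0 CPM in the wild-type libraries. All knock-out libraries were above all wild-type libraries at both days, with log2 fold changes of 1.42 ± 0.13 at day 4 (adjusted p = 1.68e-09) and 0.52 ± 0.12 at day 3 (adjusted p = 0.00134). At day 0 Sfrp2 was lower, with 3.26, 3.88 and 4.10 CPM in knock-out libraries and 5.80, 5.65 and 5.61 CPM in wild-type libraries. That log2 fold change of -0.60 ± 0.17 passed in the fit to all libraries (adjusted p = 0.0118) and not with only the day 0 libraries (0.0608, the highest of 11 alternatives, the lowest being 0.00332). At day 2 it was -0.16 ± 0.12 (adjusted p = 0.348). An antisense gene, Gm26771, shares 347 exon bases with Sfrp2, and with the use of strand not given, reads there could belong to either; Gm26771 had 357 counts over all 24 libraries.

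Sfrp5, known from the ventral foregut endoderm, was at 1.68 CPM or below in every library except those of wild-type cells at day 4. The gene (ENSMUSG00000018822) lies on GRCm38 chromosome 19, 42197971 to 42202252, minus strand. It had 11, 2 and 8 counts in the knock-out libraries of day 4, against 2004, 1423 and 870 counts in the wild-type libraries. In CPM these were 0.499, 0.0952 and 0.389 in knock-out cells and 98.55, 66.3 and 39.6 in wild-type cells. The groups were far apart, with a log2 fold change of -7.66 ± 0.40 (adjusted p = 4.11e-12). At day 0 the means were 1.36 and 1.06 CPM in knock-out and wild-type cells, at day 2 0.554 and 0.830, and at day 3 0.425 and 0.687. None of these 3 differences passed (adjusted p = 0.63, 0.459 and 0.387). The libraries had 6 to 34 counts at these days; those of the genotypes overlapped at days 0 and 2 and did not overlap at day 3.

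Frzb, a further Frizzled-related protein also called Sfrp3, was lower in knock-out cells from day 2 on. The gene (ENSMUSG00000027004) lies on GRCm38 chromosome 2, 80411970 to 80447625, minus strand. Its knock-out libraries had 7.58, 4.603 and 2.67 CPM at day 0, 0.854, 0.204 and 0.649 at day 2, 0.762, 1.15 and 0.921 at day 3, and 4.63, 3.09 and 8.07 at day 4. Its wild-type libraries had 4.25, 6.59 and 4.92 CPM at day 0, 3.74, 4.95 and 2.38 at day 2, 68.1, 25.1 and 18.9 at day 3, and 111, 102 and 88.3 at day 4. The genotypes overlapped at day 0 and at no later day. The log2 fold changes of days 2, 3 and 4 were -2.68 ± 0.81, -5.30 ± 0.58 and -4.26 ± 0.46 (adjusted p = 0.0176, 1.29e-06 and 5.07e-07). The day 2 call was lost without knock-out replicate 2 (adjusted p = 0.0685) and without wild-type replicate 2 (0.0622), the alternatives ranging from 1.48e-05 to 0.0685. The day 3 value was -4.54 without wild-type replicate 1 (adjusted p = 5.84e-07). At day 0 it was -0.09 ± 0.51 (adjusted p = 0.923).

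Counted by day, the number of antagonists lower in the knock-out went 1, 4, 3 and 6 of 7 over days 0, 2, 3 and 4, and the number higher 0, 0, 1 and 1. At day 0, Sfrp2 was lower, beside 21.1% of all tested genes called in either direction (10.6% higher and 10.5% lower). At day 2, Dkk1, Cer1, Sfrp1 and Frzb were lower, beside 32.0% of all genes (16.2% higher and 15.7% lower). At day 3, Dkk1, Cer1 and Frzb were lower and Sfrp2 higher, beside 41.2% of all genes (20.8% higher and 20.5% lower). At day 4 all 7 were called, 6 lower and Sfrp2 higher, beside 54.0% of all genes (26.3% higher and 27.6% lower). The libraries of the genotypes did not overlap for 3, 5, 5 and 7 of the 7 genes over the 4 days, beside 32.4%, 49.0%, 54.8% and 60.7% of all tested genes. The median log2 fold change over the 7 was -0.09, -1.07, -0.69 and -4.26, against medians between -0.01 and 0.01 over all tested genes. At day 0 the number lower was 2 with only the day 0 libraries and 3 with DESeq2.

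**Figure D3:**
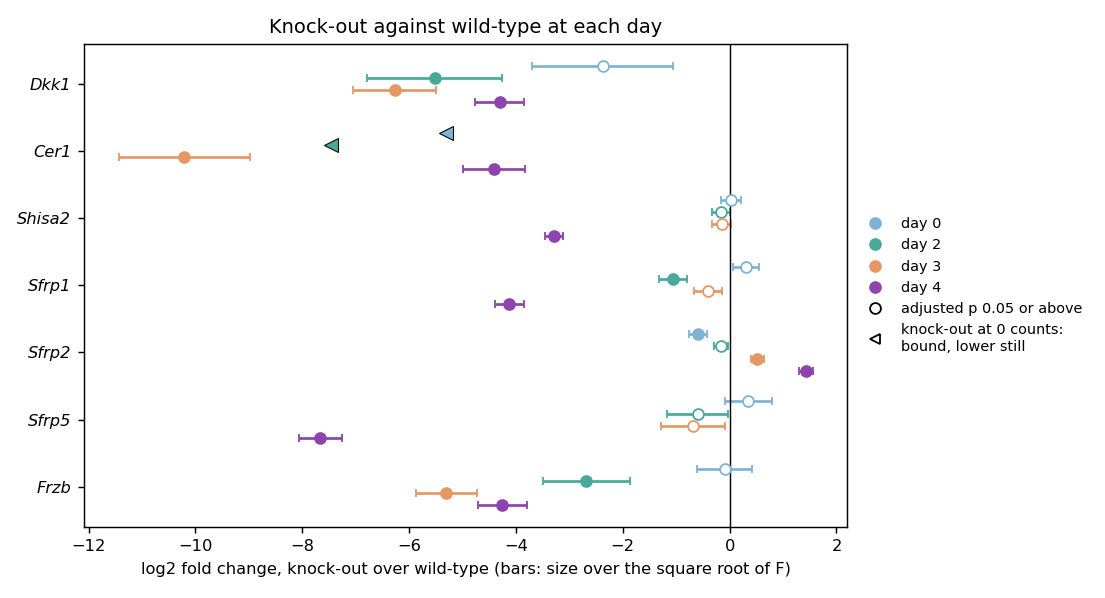
Log2 fold change, knock-out over wild-type, of each antagonist at days 0, 2, 3 and 4, with bars of its size over the square root of F; open points did not reach adjusted p under 0.05, and triangles are bounds for Cer1, which had no counts in knock-out cells at days 0 and 2. The day 4 points of 6 genes lie between -7.66 and -3.29 and that of Sfrp2 at 1.42.

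The samples are bulk RNA, so fewer cells of a type and less RNA per cell cannot be told apart. Several marker sums moved with the day 4 results. The 6 definitive endoderm markers summed to 1413 to 1705 CPM in knock-out libraries and 3332 to 3458 CPM in wild-type libraries. Most of that sum was Trh, with 1449 CPM in knock-out and 2517 CPM in wild-type cells, while Sox17 averaged 7.22 CPM in knock-out and 217 CPM in wild-type cells. Cxcr4 averaged 4.70 CPM in knock-out and 189 CPM in wild-type cells. The 7 primitive streak markers summed to 217 to 391.7 CPM in knock-out and 1052 to 1195 CPM in wild-type libraries. The 8 mesoderm markers summed to 1.09 to 1.80 CPM in knock-out and 67.6 to 139.8 CPM in wild-type libraries, with 5 or 6 of 8 at 0 counts in knock-out and 1 or 2 in wild-type libraries. The 10 extraembryonic endoderm markers summed to 2.86 to 3.72 CPM in knock-out and 36.5 to 77.5 CPM in wild-type libraries, where Hnf4a gave 39.4 CPM on average and Afp and Ttr were at or near 0. The part of each of these cell types in the fall of the 6 antagonists was not tested. Beside Sfrp2 the sum of the 8 neuroectoderm markers was higher, at 46.9 to 52.3 CPM in knock-out and 11.02 to 16.7 CPM in wild-type libraries of day 4. Nearly all of that sum was Sox3, with 47.5 CPM in knock-out and 10.5 CPM in wild-type cells, and Sox1 and Neurod1 were at 0 in every group. The sum therefore shows Sox3 and not a rise of the other markers in the list. The sum of the 7 pluripotency markers, with Sox2 listed at 0, was higher too, at 711 to 755 CPM in knock-out and 199 to 315 CPM in wild-type libraries. Its members did not move alike. From day 3 to day 4 the log2 step of knock-out minus wild-type cells was called higher for Pou5f1 and Nanog (1.63 and 2.10). It was called lower for Klf4 and Tfcp2l1 (-1.32 and -1.22) and not called for Zfp42 and Esrrb. The sum of the 12 fibroblast markers was higher as well, at 37.3 to 45.7 CPM in knock-out and 28.6 to 30.2 CPM in wild-type libraries. Of these markers only Thy1 was called in the same difference of steps (1.67), and the others had values of both signs. The part of each of these lists in the Sfrp2 result was not tested.

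Within groups, the libraries kept 1 order over several genes. In wild-type cells of day 4, replicate 1 was highest and replicate 3 lowest for Cer1, Dkk1, Shisa2, Sfrp1, Sfrp5 and Frzb, and Sfrp2 had the opposite order. In wild-type cells of day 3, replicate 1 was highest for the same genes and lowest for Sfrp2. In knock-out cells of day 4, replicate 3 was highest for Dkk1, Cer1, Shisa2, Sfrp1 and Frzb and lowest for Sfrp2. The primitive streak sum was also highest in these libraries, at 391.7 CPM in knock-out replicate 3 of day 4, 1195 CPM in wild-type replicate 1 of day 4 and 1574 CPM in wild-type replicate 1 of day 3.

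Over time in knock-out cells, Sfrp2 and Shisa2 rose at the first step and Dkk1, Cer1 and Frzb at the last. From day 0 to day 2, 2 of 7 rose and 3 fell, beside 60.1% of all genes called (29.5% higher and 30.6% lower). Sfrp2 averaged 28.8 CPM at day 2 and 3.75 CPM at day 0 (log2 fold change 2.94 ± 0.15, adjusted p = 2.42e-14), and Shisa2 rose by 0.76 ± 0.18 on the log2 scale (adjusted p = 0.00121). Sfrp1 averaged 23.7 CPM at day 2 and 63.8 CPM at day 0 (-1.42 ± 0.26, adjusted p = 0.000137), and Frzb 0.569 CPM at day 2 and 4.95 CPM at day 0 (-3.10 ± 0.77, adjusted p = 0.00212). Sfrp5 fell as well (-1.28 ± 0.52, adjusted p = 0.0382). That call was lost without knock-out replicate 1, 2 or 3 of day 0 or replicate 1 or 2 of day 2 and with no filter on low counts, with adjusted p between 0.0123 and 0.137 over the alternatives. From day 2 to day 3 only Sfrp2 rose, by 0.51 ± 0.12 (adjusted p = 0.00257), and none fell, beside 29.1% of all genes (14.7% higher and 14.4% lower). At the step to day 4, 3 rose and none fell, beside 11.6% of all genes (5.76% higher and 5.83% lower). Dkk1 averaged 6.71 CPM at day 4 and 0.207 CPM at day 3 (4.99 ± 0.86, adjusted p = 0.00116), Cer1 39.1 and 0.0738 CPM (8.94 ± 1.34, adjusted p = 0.000972), and Frzb 5.27 and 0.944 CPM (2.48 ± 0.67, adjusted p = 0.0226). The Cer1 value was 10.45 without replicate 3 of day 3 and 8.34 without replicate 3 of day 4. The Frzb call was lost without replicate 1, 2 or 3 of day 3 or replicate 3 of day 4 (adjusted p between 8.71e-05 and 0.117 over the alternatives).

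In wild-type cells the last step moved every antagonist. From day 3 to day 4, 6 of 7 rose and Sfrp2 fell, beside 45.5% of all genes called (22.4% higher and 23.1% lower). Sfrp5 changed the most, with 68.1 ± 29.5 CPM at day 4 and 0.687 ± 0.304 CPM at day 3, and Sfrp1 had 503 ± 151 CPM at day 4 and 30.6 ± 11.98 CPM at day 3 (log2 fold change 4.04 ± 0.27, adjusted p = 2.18e-09). Cer1 rose by 3.15 ± 0.55 and Dkk1 by 3.02 ± 0.42 on the log2 scale (adjusted p = 0.000382 and 1.31e-05), or by 4.08 and 3.83 without replicate 1 of day 3. Frzb rose by 1.43 ± 0.39 (adjusted p = 0.00601), or by 2.20 without that library. Its call was lost with only the libraries of both days (adjusted p = 0.115, the highest of 11 alternatives, the lowest being 4.44e-05). Sfrp2 fell to 12.8 ± 3.28 CPM at day 4, against 28.6 CPM at day 3 (-1.16 ± 0.13, adjusted p = 9.65e-08).

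The earlier steps of wild-type cells moved fewer antagonists. From day 2 to day 3, 3 rose and 1 fell, beside 42.4% of all genes (21.4% higher and 21.1% lower). Cer1 rose by 3.41 ± 0.63, Frzb by 3.34 ± 0.48 and Dkk1 by 2.28 ± 0.50 on the log2 scale (adjusted p = 0.000795, 2.76e-05 and 0.00139). Without replicate 1 of day 3 these values were 2.48, 2.57 and 1.47 (adjusted p = 0.00208, 4.05e-05 and 0.0119). Dkk1 was not called with only the libraries of both days (adjusted p = 0.0942, the highest of 11 alternatives, the lowest being 7.31e-07). Sfrp1 fell by 0.70 ± 0.26 (adjusted p = 0.0363). That call was lost without replicate 1 or 2 of day 2, without replicate 2 or 3 of day 3, with no filter and with only the libraries of both days (adjusted p between 0.00356 and 0.161 over the alternatives). Without replicate 1 of day 3, Shisa2 was called lower too (-0.44, adjusted p = 0.0397, against 0.38 with it, alternatives up to 0.748). From day 0 to day 2, 3 rose and none fell, beside 63.8% of all genes (32.0% higher and 31.8% lower). Sfrp2 rose by 2.50 ± 0.14, Shisa2 by 0.94 ± 0.18 and Dkk1 by 1.82 ± 0.72 (adjusted p = 1.21e-13, 0.000114 and 0.0352). The Dkk1 call was lost without replicate 1, 2 or 3 of day 0, replicate 1 or 2 of day 2, and with no filter (adjusted p between 0.000251 and 0.125). Cer1 had 8.77 CPM at day 2 and 1.88 CPM at day 0 (2.21 ± 0.92, adjusted p = 0.0528), and it was called without replicate 3 of day 2, with only the libraries of both days and with DESeq2 (adjusted p between 0.00106 and 0.142).

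**Figure D4:**
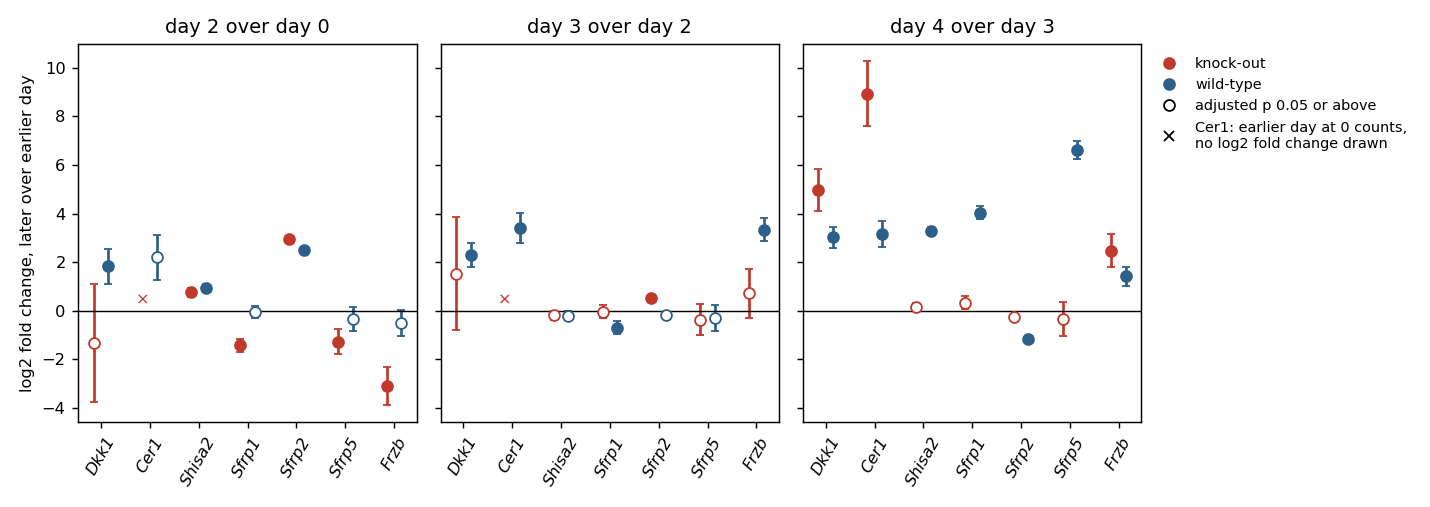
Log2 fold change of each antagonist from one day to the next, later over earlier day, for knock-out (red) and wild-type (blue) cells, with bars of its size over the square root of F; open points did not reach adjusted p under 0.05, and crosses stand where Cer1 had no counts at the earlier day. In the last step Shisa2, Sfrp1 and Sfrp5 lie near 0 in knock-out cells and between 3.29 and 6.61 in wild-type cells.

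The difference between the genotypes in each step was tested directly. From day 3 to day 4 the log2 step of knock-out cells minus that of wild-type cells was -6.97 ± 0.89 for Sfrp5, -3.71 ± 0.37 for Sfrp1 and -3.14 ± 0.24 for Shisa2 (adjusted p = 8.14e-06, 1.47e-06 and 1.04e-08). It was 0.90 ± 0.18 for Sfrp2, whose fall was smaller in knock-out cells and did not pass there (-0.26 ± 0.12, adjusted p = 0.183), although it passed with only the libraries of both days (adjusted p = 0.00279). These are 4 of 7 antagonists, 3 lower and 1 higher, beside 23.8% of all genes (12.6% higher and 11.2% lower). In knock-out cells Sfrp5, Sfrp1 and Shisa2 had steps of -0.36 ± 0.70, 0.33 ± 0.26 and 0.15 ± 0.17, none past the threshold (adjusted p = 0.806, 0.488 and 0.637). With only the libraries of both days the Sfrp1 step passed, at 0.33 (adjusted p = 0.00343). The steps of Dkk1, Cer1 and Frzb did not differ past the threshold (1.97 ± 1.16, 5.79 ± 1.97 and 1.05 ± 0.80, adjusted p = 0.253, 0.051 and 0.392). Without the wild-type library of day 3, replicate 1, these values were 1.16, 4.86 and 0.28 (adjusted p = 0.423, 0.0517 and 0.796). Over all libraries left out in turn they ranged from 1.16 to 2.39 for Dkk1, 4.86 to 7.30 for Cer1 and 0.28 to 1.37 for Frzb, the highest values being those without replicate 3 of wild-type day 3 for Dkk1 and Frzb and without replicate 3 of knock-out day 3 for Cer1. Frzb was at 0.61 without replicate 3 of knock-out day 4 (adjusted p = 0.683). Cer1 passed without replicate 2 of knock-out day 4, without replicate 3 of wild-type day 3 and with DESeq2 (adjusted p between 3e-06 and 0.128), and Dkk1 with DESeq2 (0.0204, alternatives up to 0.491). From day 2 to day 3 that difference was 0.68 ± 0.17 for Sfrp2 (adjusted p = 0.011), the call of 1 of 7 beside 10.9% of all genes (6.61% higher and 4.33% lower). From day 0 to day 2 it was -1.37 ± 0.36 for Sfrp1 (adjusted p = 0.028), again 1 of 7, beside 7.34% of all genes (4.27% higher and 3.07% lower). The Sfrp1 call was lost without replicate 1 of either genotype at day 0 or day 2, and without replicate 2 of either genotype at day 2 (adjusted p between 0.00374 and 0.084 over the alternatives). At that step Dkk1 and Frzb had -3.15 ± 2.55 and -2.59 ± 0.98 (adjusted p = 0.533 and 0.129), and both were called lower with only the 4 groups compared and with DESeq2 (lowest adjusted p = 0.0261 and 0.00958, highest 0.749 and 0.278).

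At day 0 the stem cells had been grown on fibroblasts, and fibroblast transcripts were measurable. The 12 fibroblast markers, none of them at 0, summed to 2634, 1848 and 972 CPM in knock-out replicates 1, 2 and 3 and to 979, 1737 and 1477 CPM in wild-type replicates 1, 2 and 3. Sfrp1 and Frzb kept the order of that sum within both genotypes: the knock-out library with 2634 CPM of markers had the highest Sfrp1 and Frzb (84.8 and 7.58 CPM), and the one with 972 CPM the lowest (50.7 and 2.67 CPM). Sfrp2 had the opposite order in knock-out cells. At day 2 the marker sum was 104 to 192 CPM in knock-out and 89.95 to 111 CPM in wild-type cells, lower in both. Over that interval, as given above, Sfrp1 fell in knock-out cells, and it averaged 49.6 CPM at day 2 and 51.7 CPM at day 0 in wild-type cells (-0.06 ± 0.25, adjusted p = 0.85). The part of fibroblast RNA in the day 0 levels was not tested.

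**Figure D5:**
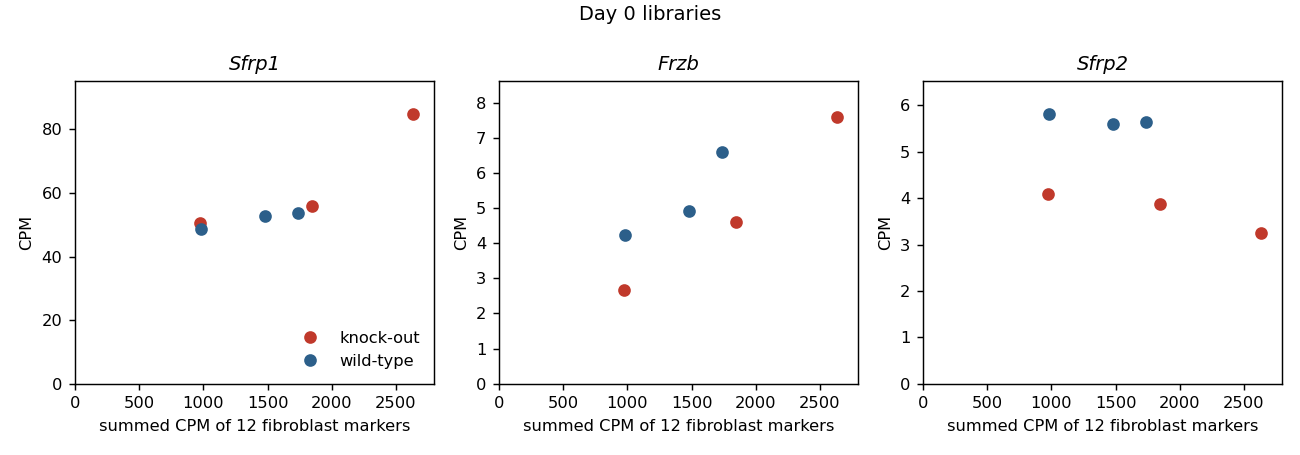
CPM of Sfrp1, Frzb and Sfrp2 in the 6 libraries of day 0 against the summed CPM of 12 fibroblast markers, knock-out in red and wild-type in blue. The knock-out library with 2634 CPM of markers is highest for Sfrp1 and Frzb and lowest for Sfrp2.

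Of 18 other antagonists outside and at the membrane, 15 were tested. At day 4 3 were higher and 5 lower in knock-out cells, a share near that of all tested genes (26.3% higher and 27.6% lower), with a median log2 fold change of 0.28. Sfrp4, a further secreted Frizzled-related gene, averaged 5.15 CPM in knock-out and 1.38 CPM in wild-type cells (1.88 ± 0.24, adjusted p = 3.27e-07), and Shisa3, a relative of Shisa2, was at 0.95 ± 0.24 (adjusted p = 0.00149). Igfbp4, an IGF-binding protein that also binds Frizzled and LRP6, averaged 10.7 CPM in knock-out and 62.2 CPM in wild-type cells (-2.55 ± 0.28, adjusted p = 5.35e-07). Rnf43, a ubiquitin ligase that removes Frizzled from the membrane, was at -0.996 ± 0.174 (adjusted p = 3.11e-05), while its relative Znrf3 was at 0.37 ± 0.10 (adjusted p = 0.00212). At days 0, 2 and 3 the counts were 0 higher and 2 lower, 1 higher and 3 lower, and 2 higher and 4 lower. Each of these counts moved by up to 2 genes under the alternatives. Of all tested genes, 10.6%, 16.2% and 20.8% were higher and 10.5%, 15.7% and 20.5% lower at these days. Trabd2b, which encodes the Wnt-cleaving protease Tiki2, had the lowest adjusted p at days 2 and 3 (log2 fold changes -1.58 ± 0.38 and -1.52 ± 0.31).

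On the side of ligands and receptors, 16 of 19 ligands and all 12 receptors and co-receptors were tested. Beside the same 26.3% higher and 27.6% lower of all genes at day 4, 6 ligands were lower and none higher in knock-out cells, among them Wnt2b (-2.12 ± 0.23), Wnt5a (-3.97 ± 0.38) and Wnt11 (-1.93 ± 0.23). Of the 12 receptors and co-receptors 5 were higher and 4 lower. Fzd5 averaged 39.6 CPM in knock-out and 495 CPM in wild-type cells (-3.64 ± 0.14, adjusted p = 2.43e-13), Fzd8 was at -2.55 ± 0.23 and Fzd4 at 1.72 ± 0.14, while Lrp5 and Lrp6 were at 0.31 ± 0.09 and 0.17 ± 0.05 (adjusted p = 0.00608 and 0.00649). Fzd5 had a smaller step from day 3 to day 4 in knock-out cells, like Shisa2, Sfrp1 and Sfrp5 (-3.28 ± 0.20, adjusted p = 1.12e-09).

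Among 12 canonical Wnt targets, 8 were lower and none higher at day 0, and 6 lower and 1 higher at day 2. At day 3, 9 were lower and none higher, and at day 4, 7 were lower and 3 higher. Of all tested genes, 10.5%, 15.7%, 20.5% and 27.6% were lower over these 4 days, and 10.6%, 16.2%, 20.8% and 26.3% higher. Axin2, the feedback gene of the pathway, averaged 20.9 CPM in knock-out and 98.2 CPM in wild-type cells at day 3 (-2.23 ± 0.17, adjusted p = 6.19e-09), and 28.6 and 38.8 CPM at day 4 (-0.44 ± 0.17, adjusted p = 0.0364). The 1 higher call of day 2 was lost without each of the 6 libraries of that day and with no filter on low counts. From day 3 to day 4 the knock-out step minus the wild-type step was called higher for 9 of 12 targets and lower for none. Of all genes, 12.6% were called higher and 11.2% lower in that difference. In wild-type cells 7 of the 12 targets fell at that step and none rose, while in knock-out cells 5 rose and 1 fell. The same difference was called lower for 3 and higher for 1 of the 7 antagonists. Whether these counts differ was not tested.

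Of 10 genes of anterior endoderm and anterior mesendoderm, where several of the antagonists are known, 3 were lower and 1 higher at day 0. At days 2, 3 and 4 the numbers lower were 4, 6 and 9, and none was higher. Of all tested genes, 10.5%, 15.7%, 20.5% and 27.6% were lower over the 4 days. The share of all genes higher was 10.6%, 16.2%, 20.8% and 26.3%. The higher call of day 0 was lost without replicate 2 or 3 of either genotype and in every other fit except that with the replicate block. At day 4 the homeobox genes Hesx1, Hhex and Lhx1 had log2 fold changes of -3.93 ± 0.35, -4.43 ± 0.36 and -4.88 ± 0.48 (adjusted p = 1.21e-09, 9.88e-09 and 1.74e-07). Follistatin (Fst) was the 1 gene not called at day 4 (0.77 ± 0.34, adjusted p = 0.0679). Of 8 definitive endoderm genes, 2 were lower and 1 higher at day 0, and again at day 2, while 5 were lower and 2 higher at day 3. All 8 were lower at day 4, with Gata4 at 0.897 CPM in knock-out and 122 CPM in wild-type cells (-7.08 ± 0.32, adjusted p = 1.16e-12). The shares of all genes at each day are those given above for the anterior genes. From day 3 to day 4 the knock-out step minus the wild-type step was called higher for 5 of the 10 anterior genes. It was called lower for 2 (4 without the wild-type library of day 3, replicate 1). For the 8 definitive endoderm genes it was called lower for 4 and higher for none. Of all genes, 12.6% were called higher and 11.2% lower in that difference. At that step 5 of the 10 anterior genes rose and none fell in knock-out cells, while 7 rose and 1 fell in wild-type cells.

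The profile of each antagonist over the 8 group means was compared with that of 11211 genes with at least 5 CPM in some group, by Pearson's r of log2 values. Dkk1 was closest to Sox17, the endoderm transcription factor (r = 0.99), and then to Nek9 and Cer1. Cer1 was closest to Dkk1, Sox17 and Oxsm. Shisa2 was closest to Slc16a1, Txndc12 and Commd7, Sfrp1 to Gpc4, Hnf1aos1 and Podn, Sfrp5 to Cacna2d3, Prss12 and Tuba8, and Frzb to Ginm1, Proser2 and Cercam. Sfrp2 was closest to Arrb1, Hip1 and Tmem100. Among the 7 themselves r was 0.99 between Dkk1 and Cer1, 0.98 between Sfrp1 and Sfrp5 and 0.91 between Dkk1 and Frzb. Sfrp2 had r of -0.44 with Sfrp1 and -0.37 with Sfrp5. These values describe 8 means that share libraries and the same large changes, and carry no test.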

How the data were processed

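Polyadenylated RNA of 24 libraries was measured. The authors deposited unnormalised read counts for each gene in each library; the build GRCm38.p6 and the tools Trimmomatic and HISAT2 are named in the submitters' processing notes. The counting tool, annotation and strand setting were not given in the sources used here. Reads of overlapping genes are therefore uncertain. Groups and replicate numbers came from the sample labels. Coordinates and exon lengths came from GENCODE M21, in which 55141 of 55401 identifiers were found; 1830 of 2090 entries with no name were named by identifier. Promoter sequences are from RefSeq.

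The counts were scaled by TMM and tested with edgeR 4.0.16 in R 4.3.3 (glmQLFit and glmQLFTest, robust), in 1 model of 8 groups over 17144 genes that passed its filter on low counts by group (common BCV, the biological coefficient of variation, 0.0906). The 13 comparisons were the genotypes at 4 days, 3 steps in each genotype and the 3 differences of steps. CPM used TMM-scaled totals. Library totals of 18531390 to 24244958 set the precision. A group at 0 counts was set to a floor of 3 counts over the group, which covers counting error only. Replicates differed beyond sampling noise in every pair (chi-square per degree of freedom 3.2 to 28.5). Alternatives were a replicate block, only the groups compared, DESeq2's size factors, no filter, DESeq2 1.42.0 and leaving out each library; the counts of lists under them were added after seeing the data. Counts of 17144 genes were simulated for the day 4 genotype comparison and tested. Of genes changed 1.5-fold (67 genes), 2-fold (67 genes) and 4-fold (66 genes) the test recovered 53.7%, 82.1% and 95.5%. It called 4 of 16944 unchanged genes. The changed genes were drawn only from those above a low mean count, and were far fewer than the genes called in the data at day 4. Recovery of genes below that mean count, or with as many genes changed as in the data, was not simulated. Likeness of profiles used log2 CPM with a prior count of 2. The 7 genes are always named, and other genes come from lists of Wnt antagonists, ligands, receptors, targets, anterior and definitive endoderm, as those with the lowest adjusted p or to set beside a relative. Members and lists were chosen with earlier results of these data known.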

Additional observations from a re-analysis of the deposited data

Results flagged for a closer look

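For 6 results, the step from one day to the next differed between knock-out and wild-type cells when the difference itself was tested (edgeR, p-values adjusted over all genes). The log2 step of knock-out cells minus that of wild-type cells was -1.37 for Sfrp1 from day 0 to day 2 (adjusted p = 0.028, lost in 6 of the 12 fits with a library left out, where it ran to 0.084) and 0.68 for Sfrp2 from day 2 to day 3 (adjusted p = 0.011). From day 3 to day 4 it was -3.14 for Shisa2, -3.71 for Sfrp1, 0.90 for Sfrp2 and -6.97 for Sfrp5 (adjusted p = 1.04e-08, 1.47e-06, 0.000521 and 8.14e-06).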

How the results depend on the processing

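With DESeq2's size factors and with the replicate number as a block, no call of the 7 genes changed in any comparison (26 counts each). Whether replicate numbers pair libraries was not settled. No comparison had all same-number correlations above 0.1. In the knock-out steps to day 2 and to day 4, however, all 6 libraries correlated best with their own number. The count lower in the knock-out at day 0 was 2 with only the groups compared and 3 with DESeq2, against 1. From day 3 to day 4 in knock-out cells it was 1 with only the groups compared, against 0. From day 2 to day 3 in wild-type cells it was 0 with no filter and 0 with only the groups compared, against 1, and 0 to 2 with a library left out. For the differences of steps, the count lower from day 0 to day 2 was 3 with only the groups compared and 3 with DESeq2, against 1, and 0 to 1 with a library left out; from day 2 to day 3 it was 1 with DESeq2, against 0. The count higher from day 3 to day 4 was 3 with DESeq2, against 1, and 1 to 2 with a library left out. The cause was not tested.

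Some log2 fold changes that were not called crossed 0 when a library was left out. Knock-out over wild-type, Shisa2 ranged from -0.14 to 0.17 and Frzb from -0.54 to 0.18 at day 0, and Shisa2 from -0.26 to 0.0939 at day 3. In knock-out cells Sfrp1 ranged from -0.13 to 0.0706 to day 3 and Sfrp5 from -0.80 to 0.0637 to day 4. In wild-type cells Sfrp1 ranged from -0.13 to 0.018 to day 2 and Sfrp5 from -0.72 to 0.26 to day 3. The difference of steps to day 3 ranged from -0.10 to 0.25 for Shisa2, -0.64 to 0.34 for Sfrp5 and -1.17 to 0.0598 for Dkk1. For Cer1 its sign changed too (adjusted p 0.928 to 0.987, and 0.921 with DESeq2). Over all genes, 3611 were called at day 0 and 1725 with only the groups compared. In the knock-out step to day 4 they were 1986, 3790 with only the groups compared, and 1234, 1181 and 1066 without replicate 1 or 2 of day 3 or replicate 3 of day 4. The difference of steps to day 2 had 1259 calls, and 736 without wild-type replicate 1 of day 2. All libraries had under 40 counts for Sfrp5 before day 4 and in knock-out cells of day 4, for Dkk1 and Cer1 in knock-out cells before day 4, for Frzb in knock-out cells of days 2 and 3, and for Dkk1 in wild-type cells of day 0, which limits precision there.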

Other observations

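The anterior list also holds secreted antagonists of BMP ligands, Nog (noggin) and Chrd (chordin). Nog was at very low counts: over days 0, 2, 3 and 4 the 3 libraries together had 6, 1, 4 and 4 counts in knock-out cells and 47, 93, 15 and 116 counts in wild-type cells (adjusted p = 0.00361, 2.74e-06, 0.0743 and 5.9e-07 in edgeR's test). Chrd had log2 fold changes, knock-out over wild-type, of -0.13 ± 0.36, -1.07 ± 0.31, -2.35 ± 0.29 and -0.91 ± 0.27 (adjusted p = 0.839, 0.0124, 2.13e-06 and 0.00679). Both were named after their values were seen.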
